A study of Mus musculus with 19 samples.

Results

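The clock and PAR bZIP genes described here were Hlf, Tef, Dbp, Nfil3, Per1, Per2, Per3, Nr1d1, Nr1d2 and Bhlhe41, which were selected on earlier results of these data. Of these 10 genes, 6 were named as the nearest gene of at least 1 listed H3K27ac peak, and Dbp, Per1, Per3 and Nr1d2 had none. Together they held 31 of the 14035 listed peaks, which fell into 17 separate regions, and 4738 genes in all had a listed peak. Hlf alone held 18 of the 31, in 9 regions.

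H3K27ac, an acetyl group on a lysine of the histone H3 tail that is found at promoters and enhancers in use, was profiled with ChIP-seq in microglia sorted from the brains of C57BL/6 mice. WT mice carried the floxed allele of the arginine methyltransferase PRMT1 (PRMT1Ifl/fl), and KO mice carried in addition a tamoxifen-inducible Cre driven from the Cx3cr1 locus (PRMT1fl/fl; cx3r1cre-ert2), a driver that is also active in other Cx3cr1-expressing myeloid cells. Per the paper's methods, tamoxifen was injected into both genotypes before the diet. WT basal mice ate normal chow and were 11 weeks old. The other 3 groups ate chow with 0.2% cuprizone (CPZ) for 5 weeks, which chelates copper and causes loss of oligodendrocytes and myelin, and their cells were sorted on CD11c (the product of Itgax, an integrin subunit) into WT CPZ CD11c-low, WT CPZ CD11c-high and KO CPZ CD11c-low. Each of the 4 groups had 2 libraries from independent biological replicates. KO basal H3K27ac and input libraries were not analysed here. The sources used here do not give the time of day at which brains were collected. The mRNA of most of these genes oscillates over the day in many tissues, so collection time and group cannot be told apart.

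Hlf, Tef and Dbp are the PAR bZIP activators, which bind a DNA element called the D-box, and Nfil3 is a bZIP repressor that competes for the same element. Their genes are outputs of the circadian clock, in which BMAL1 and CLOCK bind E-boxes and drive Per genes and the Nr1d genes. PER proteins repress BMAL1 and CLOCK, NR1D1 and NR1D2 (REV-ERB proteins) repress genes with a ROR element, and BHLHE41 (DEC2) represses through E-boxes. In macrophages and microglia the clock is known to set the daily rhythm of inflammatory genes.

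The deposited lists hold only peaks that the authors called different between 2 groups, so every listed peak of these genes had been chosen for its difference. The values of a contrast are therefore a description, and the listed status of a peak is not evidence about the gene. Levels below are whole reads recovered from the deposited normalised tag counts, divided by the depth of the library relative to the mean of the 8 libraries. Relative depth was 56.2% and 85.1% for WT basal and reached 118% in the first WT CPZ CD11c-low library. Log2 differences come from limma on log2(normalised tag count + 1) with their standard error (SE), and a peak is named called when its limma adjusted p over all listed peaks of that comparison was below 0.05. The groups did not overlap in any of the 31 member peaks, and the same held for 100.0% of the 14035 listed peaks, so nothing is read from this. With 2 libraries per group the smallest p of a two-sided exact permutation test is 0.333. Reads are PCR reads without molecular identifiers, so counting intervals cover counting error only. Positions are in mouse build mm10 (GRCm38).

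As a check of the cell type, 7 of 8 microglia markers (all but Sall1) were found in the deposited RNA tables, where their summed level (the authors' mean) ran from 9941 to 12643 between tables. Summed neuron markers ran from 8.8 to 27.2, lymphocyte markers from 0.422 to 2.47, and oligodendrocyte markers from 454.5 to 1009. Summed monocyte and border macrophage markers ran from 193.7 to 561, astrocyte markers from 225.3 to 485, and endothelial markers from 332.6 to 872.8. No peak was listed for Prmt1, the targeted gene, or for Cx3cr1, the Cre locus, so that the lists offer no check of the knockout, and 5 were listed for Itgax.

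The sequences on which the description turns, from the RefSeq assembly GRCm38.p6, are shown here on the strand of the files, or on the strand of the gene for stretches before a start. They are the central 300 bases of Hlf and Per2 regions with large differences, and the 250 bases before the RefSeq start of Hlf and of Tef. Capitals mark an exact match to 1 of 4 searched elements. These were the D-box (TTATGTAA or TTACGTAA), the E-box (CACGTG), the half-site of a ROR element (TAGGTCA) and the cAMP response element, CRE (TGACGTCA), each read on both strands.

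Hlf intron, chr11:90356176-90356475: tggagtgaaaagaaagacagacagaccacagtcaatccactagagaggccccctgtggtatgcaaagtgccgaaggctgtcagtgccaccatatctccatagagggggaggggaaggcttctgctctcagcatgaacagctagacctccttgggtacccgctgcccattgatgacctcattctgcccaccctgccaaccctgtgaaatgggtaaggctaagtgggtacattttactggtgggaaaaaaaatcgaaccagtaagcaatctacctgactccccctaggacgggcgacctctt
Hlf intron, chr11:90369672-90369971: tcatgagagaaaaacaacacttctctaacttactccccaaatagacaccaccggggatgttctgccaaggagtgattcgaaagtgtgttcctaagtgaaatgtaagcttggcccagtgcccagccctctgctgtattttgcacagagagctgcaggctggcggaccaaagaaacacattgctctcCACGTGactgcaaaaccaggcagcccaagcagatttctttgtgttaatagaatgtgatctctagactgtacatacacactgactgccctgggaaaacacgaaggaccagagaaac
Hlf before the start, chr11:90390918-90391167, minus strand: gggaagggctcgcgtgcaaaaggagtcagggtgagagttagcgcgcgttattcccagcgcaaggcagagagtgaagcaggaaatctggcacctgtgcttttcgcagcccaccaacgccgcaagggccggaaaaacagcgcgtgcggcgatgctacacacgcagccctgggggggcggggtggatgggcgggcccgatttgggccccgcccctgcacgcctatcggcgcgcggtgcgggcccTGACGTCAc
Tef before the start, chr15:81802423-81802672: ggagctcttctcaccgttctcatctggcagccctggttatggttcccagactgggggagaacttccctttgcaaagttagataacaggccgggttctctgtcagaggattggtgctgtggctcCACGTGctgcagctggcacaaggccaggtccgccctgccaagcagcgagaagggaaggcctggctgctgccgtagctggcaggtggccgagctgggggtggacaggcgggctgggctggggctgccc
Per2 intron, chr1:91456199-91456498: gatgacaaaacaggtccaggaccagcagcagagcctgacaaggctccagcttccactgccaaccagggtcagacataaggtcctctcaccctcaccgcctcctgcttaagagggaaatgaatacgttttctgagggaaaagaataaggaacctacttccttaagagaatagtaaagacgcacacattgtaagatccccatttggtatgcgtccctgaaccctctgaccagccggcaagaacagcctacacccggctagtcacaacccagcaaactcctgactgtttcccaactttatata

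Of the 23 distinct member intervals, 1 held an E-box in its central 300 bases (the Hlf intron with the highest level), against 4.54% of 12333 distinct listed intervals. None held a D-box, a ROR half-site or a CRE there, against 1.09%, 3.16% and 0.495% of all listed intervals. The stretch before the Hlf start carries a CRE, an element found in 1.79% of 32851 RefSeq promoters of 300 bases. Both Tef starts carry an E-box, as does 1 of the Per1 starts and the Bhlhe41 start, against 7.15% of promoters. The Nfil3 start carries a ROR half-site (2.61% of promoters), and the Per3 start carries 2 D-boxes (1.06% of promoters). RefSeq (GRCm38.p6) promoters were matched for 9 of the 10 genes. A match says only that these letters are present in the window.

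Hlf encodes the PAR bZIP activator hepatic leukemia factor, and its H3K27ac was lower in each WT comparison with cuprizone. In CD11c-high cells against WT basal, 9 Hlf peaks were listed and 9 were lower. Over these 9 intervals, which cover 18201 bp, the summed level was 1525 and 1103 in the WT basal libraries and 208 and 281 in the CD11c-high libraries, or 18.6% of the basal sum. The 7 intronic peaks kept between 2.69% and 16.2% of the basal level, and the peaks at the start and upstream of the gene kept 26.1% and 35.4%.

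The strongest of the intronic peaks (chromosome 11, 90367930 to 90371713, intron 2 of 3, 21.1 kb inside the gene) had a level of 418 and 350.1 in WT basal. In CD11c-high cells it was 26.7 and 24, and in CD11c-low cells 117 and 148. The 3 groups did not overlap, with WT basal highest and CD11c-high lowest. The interval was listed against WT basal for both, so nothing is read from the separation of WT basal. The log2 difference was -3.86 ± 0.25 for CD11c-high against WT basal and -1.53 ± 0.26 for CD11c-low against WT basal (SE, n = 2 per group). These comparisons share the WT basal libraries and are given side by side.

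A second intronic peak, 34.6 kb inside the gene (90355116 to 90357534), was at 160 and 134 in WT basal, 47.6 and 75.3 in CD11c-low and 1.98 and 6.85 in CD11c-high cells. Its log2 difference of -4.89 ± 0.46 in CD11c-high against WT basal was the most negative of the gene, and in CD11c-low against WT basal it was -1.27 ± 0.30. The peak called in CD11c-low was no longer called without the first CD11c-low library, where the log2 difference was -0.95. At the peak 31.9 kb inside the gene (90358176 to 90359861) the WT basal level was 78.3 and 49.3. It was 16.2 and 14.5 in CD11c-low and 0.99 and 2.57 in CD11c-high cells, for log2 differences of -1.95 ± 0.30 and -4.51 ± 0.38 against WT basal. In both of these peaks the order WT basal, CD11c-low, CD11c-high held with no overlap between libraries. Here too nothing is read from the separation of WT basal, against which both were listed.

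The 4 smaller intronic peaks were listed only for CD11c-high against WT basal, and their values in other groups were not used here. At 90361406 to 90363028 the level was 65.9 and 47 in WT basal and 3.96 and 3.43 in CD11c-high cells. At 90364727 to 90365970 it was 33.8 and 28.2 against 1.98 and 2.57, and at 90347675 to 90348553 it was 23.1 and 16.4 against 2.97 and 3.43. The smallest one rests on few reads. At 90349960 to 90350630 the recovered reads were 8 and 15 in WT basal and 0 and 1 in CD11c-high cells, a depth-adjusted ratio of 0.0282 with an exact 95% counting interval from 0.000685 to 0.174. The log2 differences of these 4 peaks ran from -3.56 to -2.26.

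At the start of the gene (90389410 to 90391528, 5' UTR of exon 1, centred 448 bp from the start) the basal libraries differed from each other, at 116 and 45.8. CD11c-low cells had 34 and 35.4 and CD11c-high cells 13.9 and 28.3. This is the region that holds the CRE shown above. The log2 difference was -1.05 ± 0.42 for CD11c-low and -1.82 ± 0.53 for CD11c-high against WT basal, and without the first WT basal library these became -0.39 and -1.16, neither of them called. Without the second WT basal library they became -1.71 and -2.48. The start was also not called in CD11c-low without either CD11c-low library (log2 differences of -1.02 and -1.08), nor in CD11c-high without its first library (-1.33).

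An intergenic peak 28.4 kb upstream of Hlf (90417445 to 90421220) had the highest level of the gene, at 616 and 415 in WT basal and 155.5 and 209 in CD11c-high cells. The log2 difference was -1.48 ± 0.31. No RefSeq gene overlaps it, and Hlf is the nearest start, which does not establish that it acts on Hlf.

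**Figure D1:**
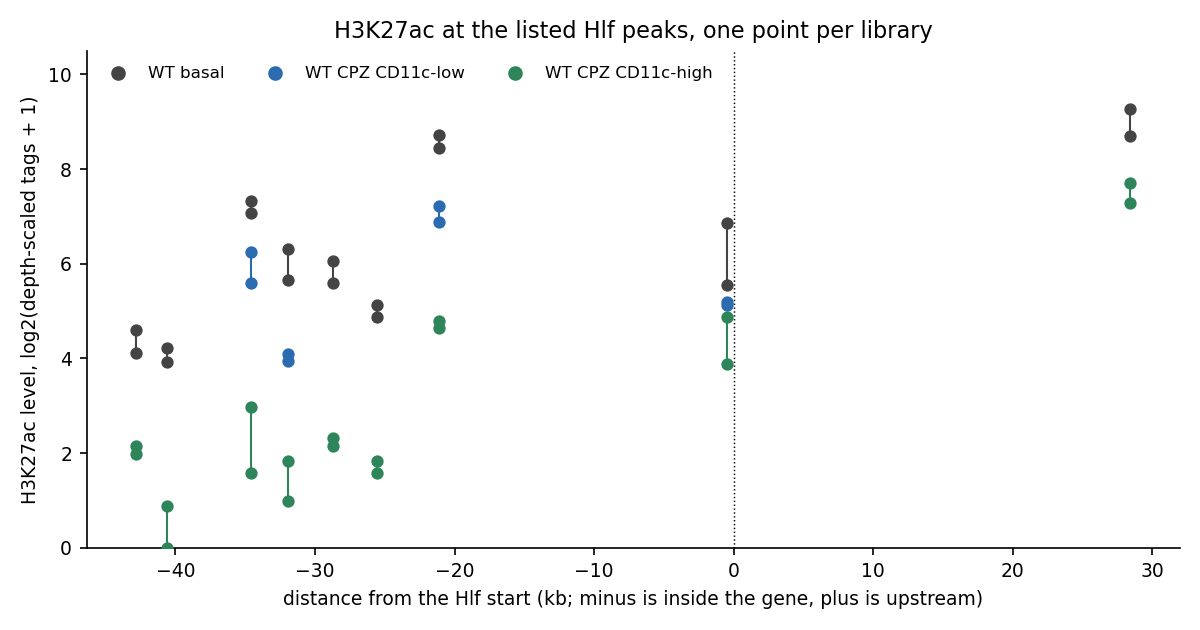
H3K27ac level (log2 of depth-scaled tags + 1, vertical axis) of each listed Hlf peak against its distance from the Hlf start in kb, with 1 point per library and a line joining the 2 libraries of a group. At 21.1 kb inside the gene WT basal was at 418 and 350.1, WT CPZ CD11c-low at 117 and 148 and WT CPZ CD11c-high at 26.7 and 24, and CD11c-low is drawn only where the same interval was listed.

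In CD11c-low cells against WT basal, 4 Hlf peaks were listed and lower, and they covered 10008 bp. Their summed level was 773 and 579 in WT basal and 215 and 273 in CD11c-low cells, or 36.1% of the basal sum. All members together had 4 lower peaks called in this comparison, each of them Hlf, and 5 higher peaks called. Of all listed peaks, 11.3% were called lower and 88.7% higher. In CD11c-high against WT basal the members had 10 peaks called lower, 9 of them Hlf, where 25.9% of all listed peaks were called lower, and 5 called higher, where 74.1% were. Because the lists were chosen on the same contrasts, nothing is read from these shares. Over listed peaks the median log2 difference was 1.54 in CD11c-low and 1.53 in CD11c-high against WT basal, while the Hlf peaks had medians of -1.40 and -3.52 and the other members 1.89 and 1.80. By number of lower peaks per gene, Hlf was exceeded by 2 of 1283 genes with a lower peak in CD11c-high and by 2 of 452 in CD11c-low cells. It was tied with 1 other gene in CD11c-high and with 7 in CD11c-low cells. Hlf was selected on these data, so nothing is read from these ranks.

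Between the CD11c populations of cuprizone-fed WT mice, 2 Hlf peaks were listed, both lower in CD11c-high cells, where 46.3% of all 449 listed peaks were called lower. No other member had a listed peak in this comparison. At 90368384 to 90370450, inside the strongest intronic peak, the level was 105 and 122 in CD11c-low and 15.8 and 23.1 in CD11c-high cells (log2 difference -2.51 ± 0.23). At 90355787 to 90356568 it was 25.5 and 39.9 against 1.98 and 2.57 (log2 difference -3.38 ± 0.25), with 74 reads against 5. Neither pair of groups overlapped, which held for 100.0% of the 449 listed peaks, so nothing is read from this.

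KO CD11c-low cells had less H3K27ac at 3 listed Hlf peaks than WT CD11c-low cells on the same diet. The other Hlf regions were not listed in this comparison. Only KO mice carried the Cre, so its part and that of PRMT1 loss cannot be told apart. Of 271 listed peaks in this comparison, 3 were Hlf peaks, and all 3 were called lower, where 18.1% of listed peaks were. No other gene had as many lower peaks listed there. Hlf was selected on these data and the list on this contrast, so nothing is read from this rank or share. At 90355787 to 90356568 the KO level was 2 and 5.31 against 25.5 and 39.9 in WT CD11c-low cells (log2 difference -2.95 ± 0.43). At 90368384 to 90370450 it was 39 and 56.6 against 105 and 122 (-1.25 ± 0.28). The upstream region (90418144 to 90420297) stood at 66 and 106 in KO and 217 and 283 in WT CD11c-low cells (-1.56 ± 0.32). The last 2 of these peaks were not called without the second WT CD11c-low library, with log2 differences of -1.15 and -1.36.

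The 3 cuprizone groups can be ordered at the intervals listed in both comparisons. At 90368384 to 90370450 the order was WT CD11c-low, KO CD11c-low, WT CD11c-high, and no neighbours overlapped. At 90355787 to 90356568 WT CD11c-low was highest, and KO CD11c-low (2 and 5.31) overlapped WT CD11c-high (1.98 and 2.57). Both intervals were listed against WT CD11c-low, so nothing is read from the separation of that group. No Hlf peak was listed for KO CD11c-low against WT CD11c-high. Bulk values cannot tell fewer cells carrying the mark from less mark per cell, and a different mix of cells within the CD11c-low gate was not tested. Of the 8 microglia markers, Sall1, P2ry12 and Siglech had lower peaks in CD11c-high against WT basal, P2ry12 and Tmem119 in CD11c-high against CD11c-low, and 0 in KO against WT CD11c-low cells. The part of these markers in the Hlf values was not tested.

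**Figure D2:**
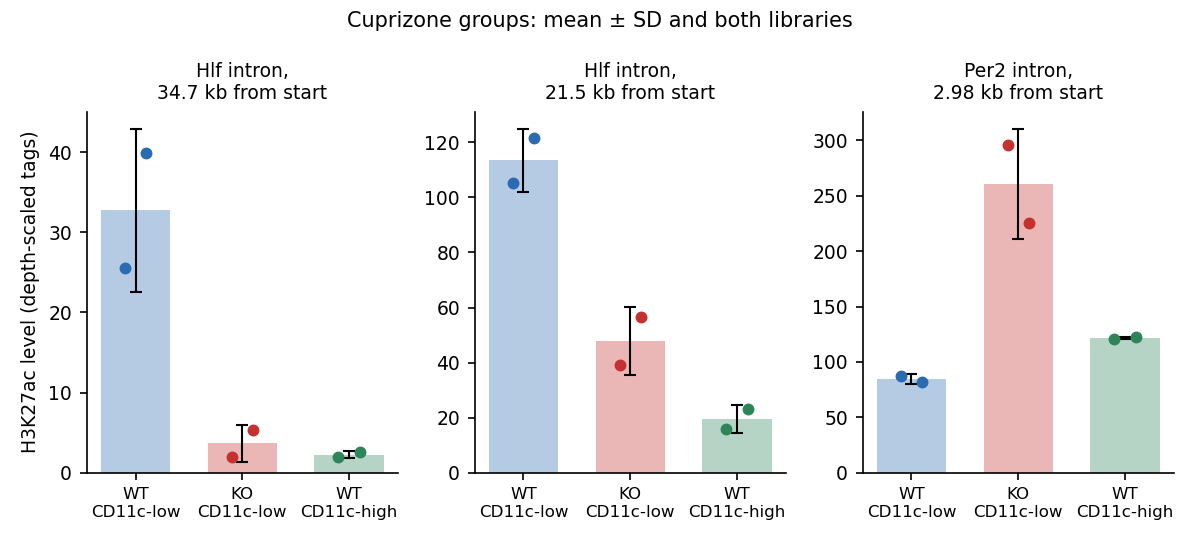
H3K27ac level (depth-scaled tags, axis from 0) at 2 Hlf intronic intervals and a Per2 intronic interval in the 3 cuprizone groups, with bars for the mean, error bars for the SD of 2 libraries and points for the libraries. KO CD11c-low was below WT CD11c-low at both Hlf intervals and above both WT groups at Per2 (296 and 225.5 against 87.6 and 81.7 in WT CD11c-low).

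The genes whose peaks moved most like the Hlf peaks were chosen by the distance between pairs of most negative log2 differences, over 2 comparisons and 6 libraries. Of 147 genes with a lower listed peak both in CD11c-high against WT basal and in CD11c-high against CD11c-low, Hlf had the most negative value in each (-4.89 and -3.38). These 2 values rest on 10 and 5 CD11c-high reads, and both comparisons share the CD11c-high libraries. Hlf was selected on these data, and a gene with many listed peaks has more values to take the lowest from. Nothing is read from its rank. The 5 nearest were Khdrbs3 (-4.15 and -2.45), an RNA-binding protein gene, 5730435O14Rik (-3.93 and -2.68), 4930453L07Rik (-3.91 and -2.19), F630206G17Rik (-4.79 and -1.65) and Cdk5rap3 (-3.47 and -2.35). Their distances from Hlf on the log2 scale ran from 1.19 to 1.76.

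Tef, another PAR bZIP activator gene, had a single listed peak. It spans a Tef start and part of intron 1 (chromosome 15, 81801312 to 81806067, centred 1.02 kb from the start) and includes the E-box shown above. Its level was 529 and 419 in WT basal and 206 and 198 in CD11c-high cells, a log2 difference of -1.22 ± 0.25, or 42.6% of the basal level. The predicted gene Gm17597 overlaps the same interval. Dbp, the third PAR bZIP activator, had no listed peak in any comparison, which leaves its H3K27ac level unknown here.

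Nfil3, the gene of the repressor at D-boxes, had 4 listings, all higher with cuprizone at the deposited scaling, and the promoter alone of these turned lower under another one, trimmed mean (TMM) factors computed on the listed peaks. The region 4.51 kb upstream of its start (chromosome 13, 52984516 to 52986583) was at 17.8 and 15.3 in WT basal and 158 and 116 in CD11c-low cells, an 8.29-fold higher mean (log2 difference 2.96 ± 0.27). A nearly identical interval (52984524 to 52986520) was at 259 and 183 in CD11c-high cells, 13.4-fold above its basal mean (3.64 ± 0.28). This region lies in the lncRNA gene Gm33424, so its assignment to Nfil3 rests on distance. An intronic peak of 501 bp (52976910 to 52977410, 3.88 kb inside the gene) was at 5.34 and 3.52 in WT basal and 52.7 and 36.3 in CD11c-low cells, with 6 reads in the basal group and 102 in the CD11c-low group (3.04 ± 0.30). At the promoter itself (52979974 to 52983010) WT basal libraries stood at 283 and 248 and CD11c-high libraries at 674 and 617, with a log2 difference of 1.28 ± 0.24 that turned to -0.20 and was not called under those factors.

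Per2, a repressor within the clock, had 1 region over intron 1 of 22, about 2.98 kb from its start, which also overlaps the lncRNA gene Gm35591. In WT mice the interval 91455815 to 91457300 on chromosome 1 was at 24.9 and 20 in basal and 103 and 99.4 in CD11c-high cells (log2 difference 2.13 ± 0.25). KO CD11c-low cells were higher still over the wider interval 91455052 to 91457644. There the level was 296 and 225.5 in KO CD11c-low, 87.6 and 81.7 in WT CD11c-low and 121 and 122.5 in WT CD11c-high cells. The order was KO CD11c-low, WT CD11c-high, WT CD11c-low, with no overlap between neighbours. The interval was listed for KO against each WT group, so nothing is read from the separation of KO. The log2 difference was 1.60 ± 0.26 for KO against WT CD11c-low, where this was the 1 member peak called higher and 81.9% of all listed peaks were called higher. It was 1.08 ± 0.21 for KO CD11c-low against WT CD11c-high, where it was the only member peak listed and 57.2% of listed peaks were called higher. Against WT CD11c-low, Per2 was not called under TMM factors on the listed peaks (log2 difference 0.31). Per1 and Per3 had no listed peak.

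Nr1d1 encodes REV-ERB alpha, a repressor of Bmal1. Its 1 listed peak (chromosome 11, 98767963 to 98769003) lies 6.89 kb from its start, where the 3' end of Nr1d1 overlaps that of Thra on the opposite strand, and the annotation in the file names an exon of a Thra transcript. The level was 39.2 and 47 in WT basal and 85 and 90.7 in CD11c-low cells. H3K27ac has no strand, so the peak cannot be given to either gene, and its log2 difference of 1.02 ± 0.25 turned to -0.55 under TMM factors on the listed peaks. It was not called when either CD11c-low library was left out (log2 differences of 1.06 and 0.97). Nr1d2, the second REV-ERB gene, had no listed peak.

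Bhlhe41, a repressor that acts at E-boxes, had 2 regions with higher values in both WT cuprizone groups at the deposited scaling, and neither region was called in either comparison under TMM factors on the listed peaks. The intergenic region 34.5 kb from its start (chromosome 6, 145830237 to 145831565) was at 46.3 and 45.8 in WT basal, 113 and 119.8 in CD11c-low and 149 and 112 in CD11c-high cells, with log2 differences of 1.32 ± 0.24 and 1.47 ± 0.26 that became -0.215 and -0.00893 under those factors. The CD11c populations overlapped at this region. The other region lies at the 3' end of the gene, 8.01 kb from the start (145856949 to 145857863), and was at 8.9 and 12.9 in WT basal and 45.1 and 40.8 in CD11c-low cells (1.89 ± 0.27, and 0.37 under those factors). A shorter interval inside it (145857038 to 145857538) was at 1.78 and 9.4 in WT basal and 26.7 and 29.1 in CD11c-high cells (2.39 ± 0.59, and 0.63 under those factors), from 9 and 61 reads. The basal libraries stood apart there, and the log2 difference was 1.46 without the first and 3.32 without the second of them.

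**Figure D3:**
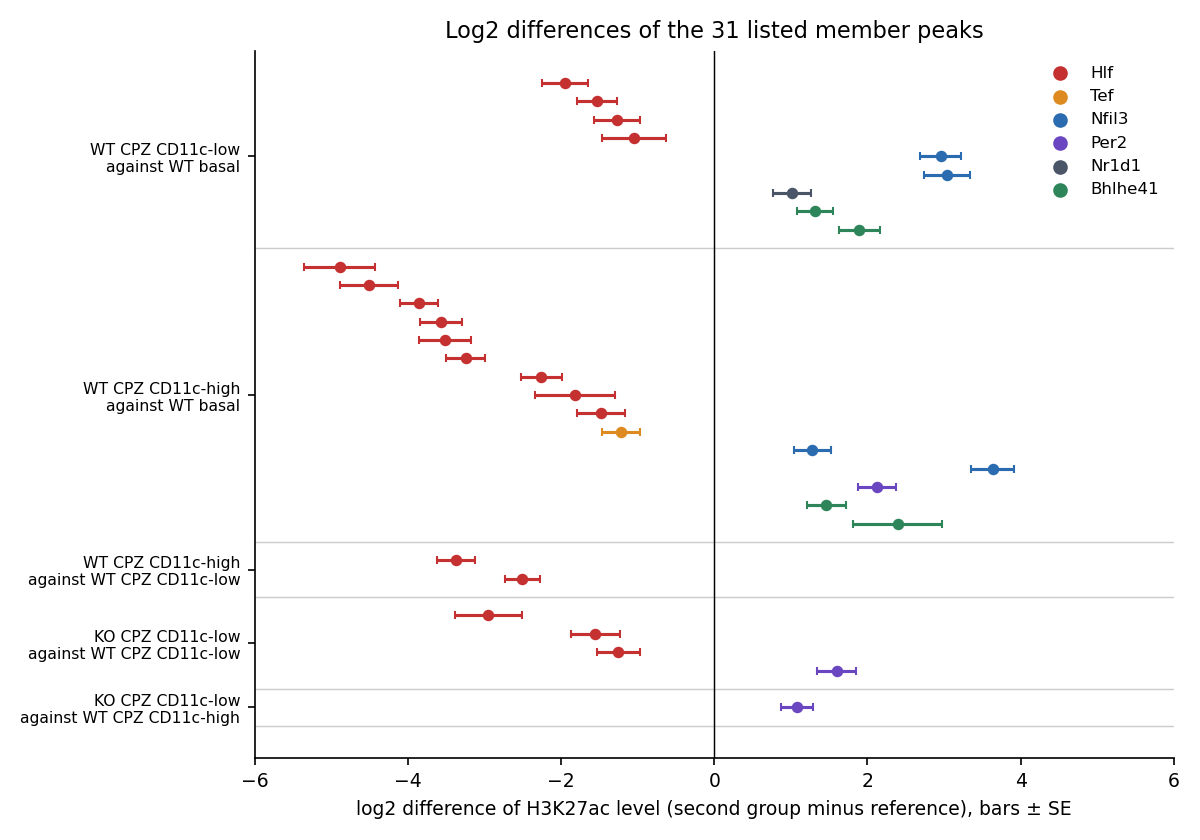
Log2 difference of H3K27ac level (horizontal axis, second group minus reference, bars ± SE) for the 31 listed member peaks, grouped by comparison and coloured by gene. All Hlf and Tef points lie below 0 and the other points above it, of which Nr1d1, the Nfil3 promoter and the 34.5 kb Bhlhe41 region in both comparisons turned below 0 under TMM factors on the listed peaks.

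The deposited scaling by library depth was kept for all these values. TMM factors computed on the listed peaks moved log2 differences by a median of -1.52 in CD11c-low and -1.47 in CD11c-high against WT basal, -0.23 in CD11c-high against CD11c-low, -1.28 in KO against WT CD11c-low and -0.41 for KO CD11c-low cells set against WT CD11c-high. Such factors centre lists that were chosen for change. All 18 Hlf listings stayed lower and called under them. The factors moved values downward in each comparison, so a lower peak could only become lower and nothing is read from this.

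Among the rest of the clock and at the deposited scaling, 3 of 20 other core genes had a higher listed peak in CD11c-high against WT basal cells. In CD11c-low cells 2 had one. Of all listed peaks, 74.1% were called higher in CD11c-high and 88.7% in CD11c-low cells against WT basal. Bhlhe40, the close relative of Bhlhe41, had a promoter peak at 73 and 36.4 in WT basal and 1143 and 1028 in CD11c-high cells (log2 difference 4.36 ± 0.37). Timeless had a peak at 229.6 and 159.8 in WT basal and at 732 and 685 in CD11c-high cells (1.88 ± 0.28). Rora, the gene of a nuclear receptor that activates at ROR elements, had an intronic peak at 71.2 and 47 in WT basal and 13.9 and 18 in CD11c-high cells (-1.80 ± 0.30). None of the 20 had a peak listed between the cuprizone groups. Of 12 clock output genes, 6 had a higher and 0 a lower peak in CD11c-high against WT basal cells. The median log2 difference of their 13 peaks was 2.33, beside 1.53 over all listed peaks. Several of the 13 belong to the same gene. With most listed peaks higher in this comparison, nothing is read from these counts. Noct, a circadian phosphatase, had a peak 375715 bp from its start at 7.12 and 4.7 in WT basal and 223 and 179 in CD11c-high cells (4.86 ± 0.29). Alas1 encodes the first enzyme of heme synthesis. An intergenic peak 13259 bp from its start went from 35.6 and 15.3 to 459 and 448 (4.21 ± 0.41). The Noct and Alas1 peaks were named by nearest start, which does not establish that they act on these genes.

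RNA was available as the authors' mean over the libraries of each of 6 tables that had been normalised separately, so a value pools 2 groups and differences between groups were not tested. By the headers these tables held 3 WT basal and 2 KO basal libraries but only 1 library of each cuprizone group. Hlf stood at 158, 129 and 103 in the 3 tables that hold WT basal libraries, which also hold KO basal, WT CD11c-low and WT CD11c-high libraries in this order. In the 3 tables of cuprizone libraries alone it was 20.8 (WT CD11c-low with WT CD11c-high), 27.4 (WT CD11c-low with KO CD11c-low) and 9.29 (WT CD11c-high with KO CD11c-low). These ranges of Hlf did not overlap, while the mean over all genes ran from 97.6 to 119 and from 89.5 to 126.9. Nfil3 had the opposite order, at 86 to 209 in tables with WT basal and 278 to 466.5 in tables without. Per3 ran from 174 to 221 with and 102 to 148.5 without WT basal libraries. For the other 7 genes the 2 ranges overlapped. The tables share libraries, so the values within a range are not independent. The share of all genes whose ranges do not overlap is not known here, and nothing is read from these ranges. The summed microglia markers ran from 11489 to 12643 with and from 9941 to 11444 without WT basal libraries, and the summed endothelial markers from 332.6 to 457.7 and from 521 to 873, and their part in the Hlf and Nfil3 levels was not tested.

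Compared per length within each table, Per1 was the most abundant of the 10 mRNAs in all 6 tables (210 to 371 per kb). Hlf was the 9th in the tables with WT basal libraries (18.2 to 27.9 per kb) and the last in the others (1.64 to 4.84 per kb), where it fell below Per2. Bhlhe41 and Tef, at 151 to 214 and 89.7 to 187 per kb, were among the first 4 in every table. Dbp ran from 50.7 to 97.3 per kb and Nr1d1 from 22 to 86.1. Tef, Per1 and Per3 were quantified on different transcripts in different tables, and their levels across tables carry that difference.

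**Figure D4:**
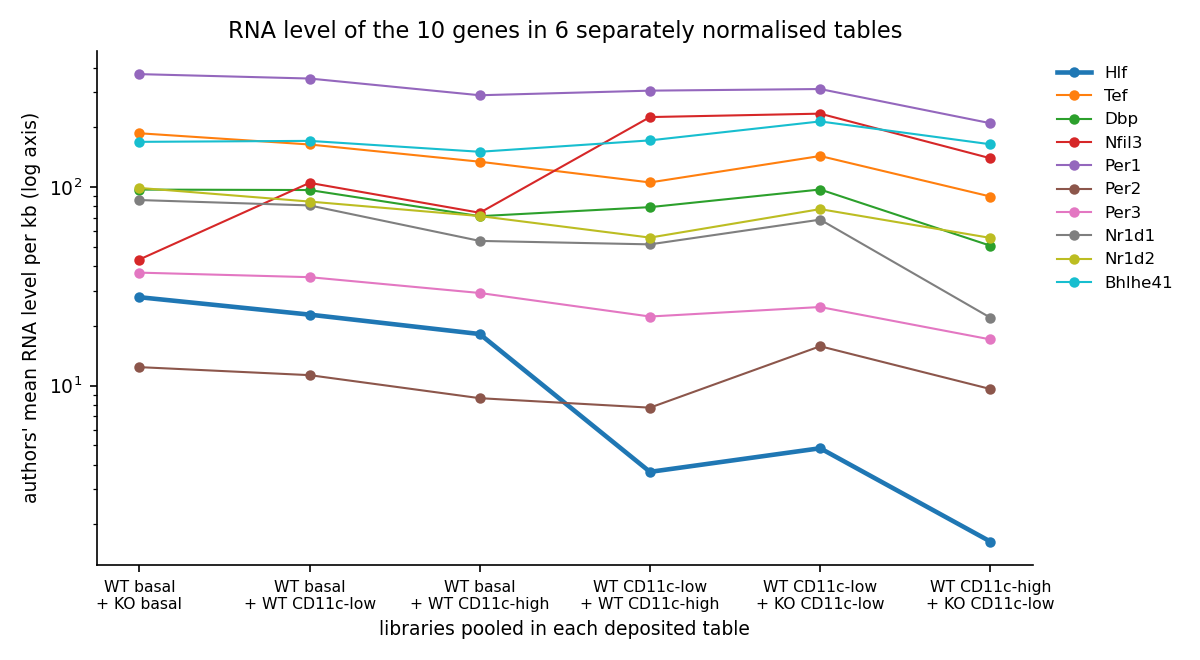
Authors' mean RNA level per kb of transcript (log axis) of the 10 genes in the 6 deposited tables, each of which pools the libraries of 2 groups and was normalised separately, with lines joining the values of a gene. Hlf ran from 18.2 to 27.9 in the 3 tables with WT basal libraries and from 1.64 to 4.84 in the 3 without.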

How the data were processed

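H3K27ac ChIP-seq of 8 libraries (4 groups of 2) was analysed, from 19 samples of which 9 were inputs. The authors aligned reads with Bowtie2, called and merged the peaks of the 2 groups of a comparison with HOMER, and tested them with DESeq2 (adjusted p below 0.05, absolute log2 fold change above 1). The deposited signal values are normalised tag counts per peak. The paper names the human build hg19, the labels list hg19 and mm10, and the coordinates lie in mouse mm10. The RNA tables give the authors' mean of normalised signal over all libraries of a table, and 19 per-library RNA columns were not used. The authors' own fold changes, p-values and direction flags, which both kinds of file hold, were not used either.

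Whole reads were recovered from the deposited values (100% whole within a tolerance of 0.006 divided by the value of 1 read plus 0.003 reads). Peaks were tested per comparison with limma 3.58.1 on log2(value + 1), Benjamini-Hochberg adjusted over all listed peaks, and edgeR 4.0.16 and DESeq2 1.42.0 on the recovered reads were alternatives (R 4.3.3). edgeR called all listed peaks in each of the 5 comparisons (4886, 7520, 449, 271 and 909). On simulated data with 200 of 7520 peaks changed 4-fold, limma recovered 96%, edgeR 96.5% and DESeq2 85% in CD11c-high against WT basal. Most simulated peaks were unchanged, unlike the listed ones, so nothing is read from this about calls on these lists. Other alternatives were TMM factors, a minimum mean of 50 tags, peaks within 10 kb of a start, a pseudocount of 5, a replicate block and leaving out each library. Lower depth in WT basal makes its values less precise.

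The genes and gene lists were chosen with earlier results of these data known. All 10 members were named, with up to 4 genes of each other list that had a listed peak, by the largest absolute log2 difference, and the 5 genes nearest to Hlf in their pair of most negative log2 differences. Motifs were searched as exact letters in GRCm38.p6 sequence and RefSeq promoters (pysam 0.24.0). A sequence and a result of the other core clock genes, with the counts of lower genes that include it, are not reported here.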

Additional observations from a re-analysis of the deposited data

How the results depend on the processing

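Of the 31 member peaks, 31 kept their direction and call with edgeR, with DESeq2, with a pseudocount of 5 and with the replicate block. edgeR, DESeq2 and the replicate block called every listed peak of each comparison, so nothing is read from this. The pseudocount of 5 called 902 of 909 for KO CD11c-low against WT CD11c-high and every listed peak elsewhere. Under TMM factors over the listed peaks 24 did, 3 were no longer called, and 4 changed sign: Nr1d1 (-0.55), Bhlhe41 at 34.5 kb in CD11c-low (-0.215) and CD11c-high (-0.00893) and the Nfil3 promoter (-0.203). Called higher members then fell to 2 in CD11c-low, 2 in CD11c-high and 0 for KO set against WT CD11c-low cells. Over all listed peaks, called higher ones fell to 1216 of 4334, 2397 of 5571 and 23 of 222, in the same order. These factors centre lists that were chosen for change and moved values downward, so a lower peak could not change sign under them. With a mean of at least 50 tags, 3 higher peaks in CD11c-low, 4 lower in CD11c-high and 1 lower in CD11c-high against CD11c-low remained. Over all listed peaks, 2992 of 4334, 978 of 1948 and 139 of 208 such calls remained, in the same order. Within 10 kb of a start, the lower peaks numbered 1 in CD11c-low and 2 in CD11c-high. They numbered 0 in CD11c-high against CD11c-low and 0 in KO against WT CD11c-low cells. These alternatives count fewer peaks. The share of all called peaks within 10 kb is not known here, so nothing is read from these counts.

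Leaving out 1 library gave 4 to 5 higher and 2 to 4 lower members in CD11c-low against WT basal, the 2 without the first CD11c-low library. It gave 5 to 5 and 9 to 10 in CD11c-high against WT basal, 2 to 2 in CD11c-high against CD11c-low, 1 to 1 higher and 1 to 3 lower in KO against WT CD11c-low (1 without the second WT CD11c-low library), and 1 to 1 for KO CD11c-low cells set against WT CD11c-high. Over single peaks, 114 such values kept their call and 10 did not. Of all listed peaks, too, fewer were called lower without the first CD11c-low library (against WT basal) or the second (KO against WT CD11c-low). Nothing is read from these counts of calls. The replicate block left every count of called members as it was (9 lower Hlf and 1 lower Tef peaks, 10 in all, in CD11c-high against WT basal). Deviations of same-numbered libraries correlated between -0.082 and 0.136, the highest between CD11c-low and CD11c-high WT libraries. The sources used here do not say whether same-numbered libraries came from the same mice, and 2 pairs cannot settle it. Depth limits the smallest peaks, of which the Hlf peak at 40.6 kb rests on 1 read in CD11c-high cells.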

Other observations

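Lists outside the clock also held called peaks in CD11c-high against WT basal cells, where 74.1% of all listed peaks were called higher and 25.9% lower. Of 6 C/EBP family genes, which share the bZIP fold, Cebpa (log2 difference 1.52) and Cebpg (1.05) were higher and Cebpe (-1.38) lower. The 8 glucocorticoid response genes went both ways, with 3 higher and 4 lower, among them Dusp1 (2.87) and the receptor gene Nr3c1 (-2.07). Of 12 early response genes, 7 had a higher and 1 a lower peak, with Atf3 at 2.66.

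Markers of other cells had listed peaks in the same comparison. Monocyte and border macrophage markers had 2 genes higher and 2 lower of 7, with F13a1 at 3.91 and Lyve1 at -1.95. Plac8 had peaks both ways and is in both counts. Astrocyte markers had 1 higher of 5 (Slc1a2, 4.02) and oligodendrocyte markers 1 higher and 1 lower of 6 (Mbp 3.64, Mog -2.70). Endothelial markers had 2 higher and 2 lower of 5, with Pecam1 in both counts, and lymphocyte markers 1 higher of 4. Neuron markers had 0 of 7. The part of any of these in the clock gene values was not tested.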
